A study of Chlorocebus aethiops with 10 samples.

Results

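The genes described here are the heat shock proteins and the DNAJ cochaperones of the liver. They were taken by symbol: every gene whose symbol starts with HSPA, HSPB, HSPD, HSPE, HSPH, DNAJA, DNAJB or DNAJC followed by a number, and every HSP90 gene. The array annotation held 69 such genes on 74 features, out of 16583 genes with a symbol on 18188 features and 45033 features in all. The livers came from 10 African green monkeys (Chlorocebus aethiops), all of them adult, female and obese, and were biopsied on day 57. All 10 animals had been fed a high-fat diet, which the labels give as lasting 12 weeks. The treated group of 5 was given antimiR-33a/b, an inhibitor of the microRNAs miR-33a and miR-33b, subcutaneously, first 20 mg/kg (day 0), then weekly doses of 5 mg/kg for 8 weeks. The vehicle group of 5 received 0.9% saline. Animals given an inhibitor of only miR-33a or only miR-33b were not analysed here. Each array came from a different animal, and animals are numbered 1 to 5 within each group by deposit order, so an equal number does not pair 2 animals.

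Chaperones bind proteins that are not fully folded. The HSP70 proteins (HSPA) do so in cycles of ATP hydrolysis, which J-domain proteins (DNAJ) start by delivering a client and stimulating the ATPase, and which HSP110 proteins (HSPH1, HSPA4, HSPA4L) reset by exchanging the nucleotide. HSP90 proteins act later on selected clients such as kinases and steroid receptors, chaperonins (HSPD1 with its lid HSPE1) enclose clients in a chamber, and small heat shock proteins (HSPB) hold them without ATP. The transcription factor HSF1 induces the heat-responsive cytosolic members. The unfolded protein response induces those of the endoplasmic reticulum, which in hepatocytes serve a large output of secreted proteins.

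The values were taken as log2. They lie around 0 for each feature, with a median over the 10 arrays within 0.089 of 0 for 90% of features, so they were taken as centred, by a step the sources used here do not state. They can be compared between animals but not between genes, and neither a gene's level nor its absence can be read from them. The labelled tissue therefore could not be checked by the presence of its markers. Array medians lay between -0.054 and 0.061. In bulk tissue, fewer cells of a type and less RNA per cell cannot be told apart. A further measure differed between the groups and is given beside the results: the median of 323 genes of housekeeping families (ribosome, proteasome, respiratory chain and others) minus the median of 513 genes of families seldom transcribed in liver (olfactory receptors and others). This family contrast ran from -0.29 to -0.026 in vehicle animals and from -0.090 to 0.23 in treated animals (exact two-sided permutation p = 0.0159).

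Of the 69 genes, 13 rose and 2 fell in treated livers in limma at an adjusted p of 0.05, and 54 did not pass. Across all genes 20.5% were called, 13.7% higher and 6.8% lower. The corresponding shares of the chaperone genes were 21.7%, 18.8% and 2.9%, so the family as a whole was called at about the rate of all genes. After quantile normalization the split over all genes was 10.8% higher and 9.07% lower. The genes that rose were led by HSPD1, the mitochondrial chaperonin (1.38-fold), the HSP90 genes HSP90B1 (1.48-fold) and HSP90AB1 (1.44-fold), and the endoplasmic reticulum cochaperone DNAJC10 (1.38-fold). DNAJC11, a mitochondrial outer membrane protein, and HSPB6, a small heat shock protein best known from muscle, fell to 0.858-fold and 0.864-fold. None of the 15 passed after adjustment for the family contrast, as described further on.

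The median difference over the 69 genes was 0.14 on the log2 scale, against 0.039 over all genes, and 54 of 69 differences were positive (78.3%, against 59.2% of all genes). Values of all 5 treated animals lay above all vehicle values for 10 members (14.5%, against 8.79% of all genes) and below them for 1 member (1.45%, against 4.52%). Within the classes, 2 of 12 HSPA genes, 2 of 3 HSP90 genes, 1 of 2 chaperonin genes, 1 of 4 DNAJA genes and 7 of 28 DNAJC genes rose. Among the 7 HSPB genes 1 fell, and among the DNAJC genes 1 fell. Over all genes 13.7% were called higher and 6.8% lower. HSPH1 did not pass, nor did any of the 12 DNAJB genes in limma, 1 of which had an unadjusted p under 0.05. Such a p was found for 27 of the 69 members (39.1%) and for 35.6% of all genes.

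**Figure D1:**
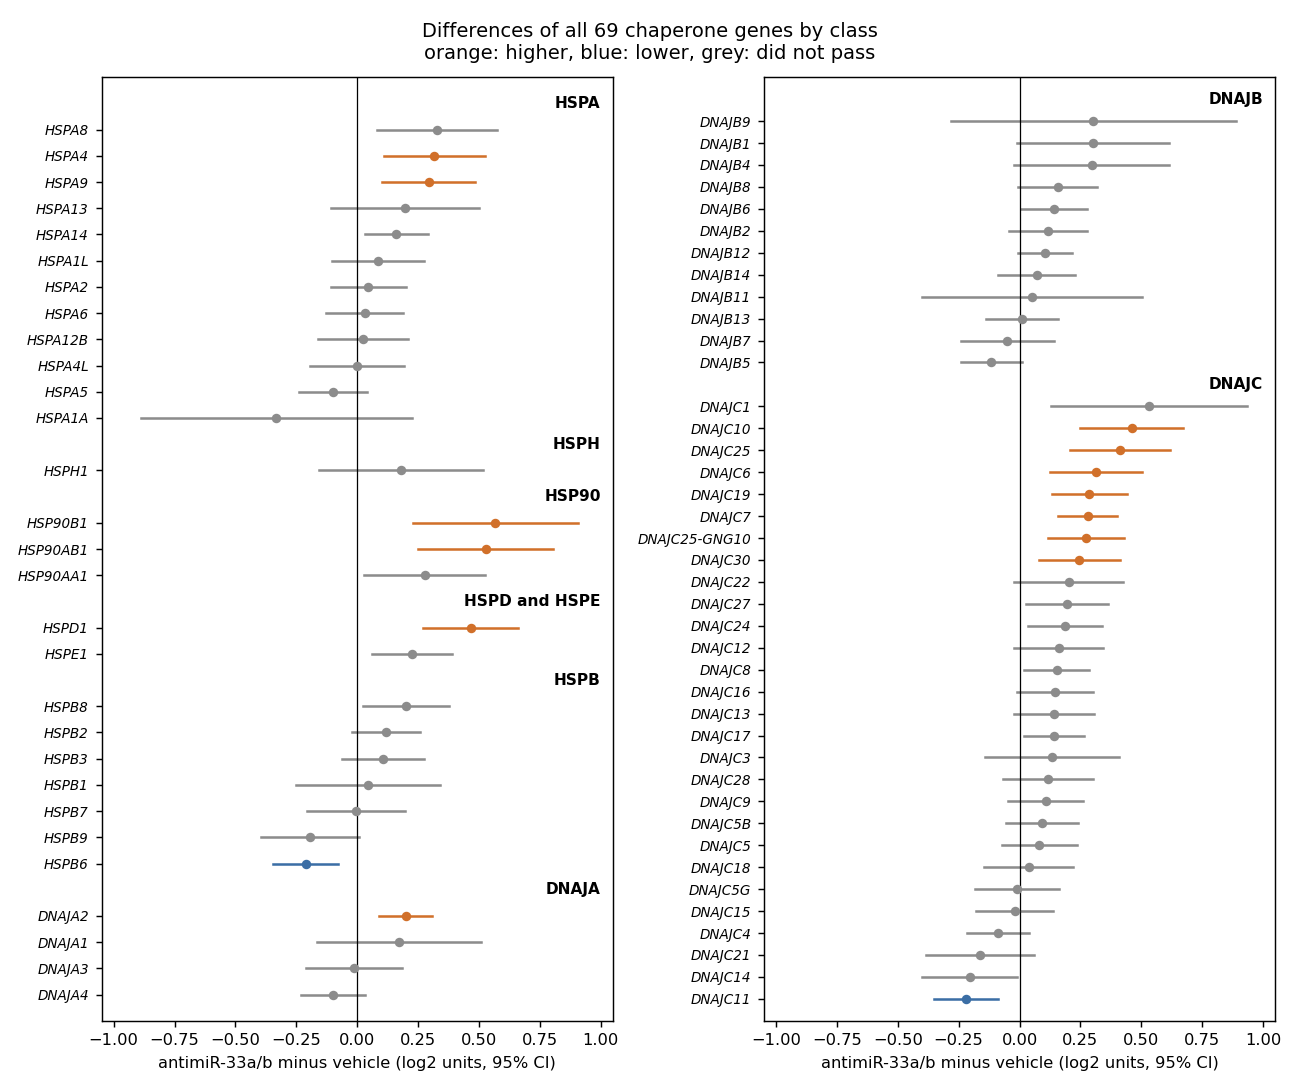
Difference between treated and vehicle livers (horizontal axis, log2 units) for each of the 69 chaperone genes, grouped by class, with lines giving the 95% confidence interval from limma (5 animals per group). The 13 orange genes rose and the 2 blue genes fell at an adjusted p of 0.05; the widest interval belongs to DNAJB9.

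HSP90B1, the HSP90 protein of the endoplasmic reticulum, had values of -0.14, -0.55, -0.61, 0.12 and -0.48 in vehicle animals 1 to 5 and of 0.36, -0.046, 0.59, 0.38 and -0.10 in treated animals 1 to 5. The groups overlapped, with 3 treated animals above the highest vehicle animal, which was vehicle animal 4. This gave a difference of 0.57 (SE 0.16, 95% confidence interval 0.23 to 0.91, limma adjusted p = 0.024). After quantile normalization HSP90B1 missed the threshold (0.48, adjusted p = 0.059). HSP90AB1, the constitutive cytosolic form, was measured at -0.50, -0.64, -0.62, 0.0086 and -0.19 in the vehicle group and at 0.26, -0.063, 0.42, 0.055 and 0.036 in the treated group. Here 4 treated animals exceeded the highest vehicle value, which again came from vehicle animal 4, with a difference of 0.53 (SE 0.13, 95% confidence interval 0.25 to 0.80, limma adjusted p = 0.0143). HSP90AA1, the heat-inducible cytosolic form, had -0.28, -0.53, -0.39, 0.15 and 0.011 under vehicle and 0.097, 0.089, 0.19, 0.10 and -0.12 under treatment. Vehicle animals 1, 2 and 3 were below every treated animal, vehicle animals 4 and 5 were among them, and the difference of 0.28 did not pass (limma adjusted p = 0.105). Without vehicle animal 4 it was 0.37 and passed (adjusted p = 0.0209). The 2 features of HSP90AA1 gave 0.29 and 0.27 on their own.

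HSPD1 forms the chamber in which mitochondrial proteins fold. Its values were -0.39, -0.44, -0.34, -0.030 and -0.17 in vehicle animals and 0.27, 0.017, 0.36, 0.26 and 0.062 in treated animals. Every treated animal was above every vehicle animal, the lowest being treated animal 2, with a difference of 0.47 (SE 0.090, 95% confidence interval 0.27 to 0.66, limma adjusted p = 0.0055). The exact permutation p was 0.0079, the smallest that 5 against 5 animals allow. Groups without overlap always give this p, so it adds no separate support. Over all genes, 8.79% had all treated values above all vehicle values. HSPE1, the lid of the chamber, had -0.28, -0.078, -0.096, -0.15 and 0.00073 under vehicle and -0.00073, 0.083, 0.041, 0.35 and 0.058 under treatment, the highest being treated animal 4. The groups overlapped by vehicle animal 5 and treated animal 1. The difference of 0.23 missed the threshold (SE 0.076, limma adjusted p = 0.0518) and passed after array medians were equalized (0.0323), with a robust trended prior (0.0398) and with array weights (0.0286). Whether the 2 chaperonin genes differed in their response was not tested.

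Of the HSP70 class, HSPA9 and HSPA4 rose. HSPA9, the mitochondrial HSP70 that draws imported proteins across the inner membrane, had vehicle values of -0.29, -0.27, -0.28, 0.061 and -0.40 and treated values of 0.26, -0.065, 0.11, -0.017 and -0.00098. Vehicle animal 4 lay within the treated range and the other vehicle animals below it, with a difference of 0.29 (SE 0.089, 95% confidence interval 0.10 to 0.49, limma adjusted p = 0.0343). HSPA4, an HSP110 protein that exchanges nucleotide on HSP70, had -0.29, -0.30, -0.40, 0.0034 and -0.28 and -0.0082, -0.083, 0.40, -0.0034 and 0.026 in the respective groups, with treated animal 3 far above the rest. Its difference was 0.32 (SE 0.096, limma adjusted p = 0.0346). Both missed the threshold after quantile normalization (adjusted p = 0.129 and 0.105) and when array medians were equalized (0.0645 and 0.0535).

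HSPA8, the constitutive cytosolic HSP70 that also uncoats clathrin vesicles, was measured at -0.32, -0.29, -0.35, 0.097 and -0.46 in vehicle and 0.15, -0.035, 0.37, 0.011 and -0.19 in treated animals. As for HSPA9, vehicle animal 4 lay inside the treated range and the other vehicle animals below it. The difference of 0.33 missed the threshold (SE 0.11, limma adjusted p = 0.0585); 1 of its 2 features passed on its own (0.35, adjusted p = 0.0328) and the other did not (0.30, adjusted p = 0.0965). HSPA5, the HSP70 of the endoplasmic reticulum and a standard marker of the unfolded protein response, had 0.10, 0.032, 0.070, 0.0024 and 0.18 under vehicle and -0.075, 0.17, -0.11, -0.058 and -0.040 under treatment. These values covered a narrow range, 4 treated animals were below the lowest vehicle animal and treated animal 2 was not, and the difference of -0.099 did not pass (limma adjusted p = 0.298). The feature of the stress-inducible HSPA1A cannot be told apart from the nearly identical HSPA1B, and its difference of -0.33 (SE 0.26, adjusted p = 0.376) was smaller than the spread between vehicle animals (SD 0.65). The other 7 genes of the class (HSPA13, HSPA14, HSPA1L, HSPA2, HSPA6, HSPA12B and HSPA4L) had differences from 0.000063 to 0.20. None of these passed in limma; HSPA14, an HSP70 found with ribosomes, had an unadjusted p of 0.0186 and all 5 treated animals above the vehicle range.

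The J-domain proteins that serve the cytosolic HSP70s are mostly of the DNAJA and DNAJB classes, and 1 of these 16 genes rose (13.7% of all genes did). DNAJA2 had -0.22, -0.13, -0.12, -0.10 and -0.20 in vehicle livers and 0.027, 0.033, 0.027, 0.084 and 0.063 in treated livers. The groups did not overlap and both were tight, with a difference of 0.20 (SE 0.051, 95% confidence interval 0.089 to 0.31, limma adjusted p = 0.0177). DNAJA1, a heat-inducible partner of HSPA8, had 0.0011, -0.35, -0.39, 0.35 and -0.30 and -0.055, 0.053, 0.53, -0.15 and -0.21 in the respective groups. Vehicle animal 4 and treated animal 3 were the high values, the groups overlapped, and the difference of 0.17 was smaller than the SD within either group (limma adjusted p = 0.452). DNAJA4 had the most negative difference of its class, -0.098 (adjusted p = 0.27), with -0.035, 0.20, 0.032, -0.0017 and -0.011 under vehicle and -0.14, -0.071, 0.022, -0.028 and -0.083 under treatment. DNAJB5 had that of the DNAJB class, -0.12 (adjusted p = 0.166), with 0.13, 0.10, 0.046, -0.045 and 0.16 under vehicle and -0.034, 0.043, -0.11, -0.052 and -0.041 under treatment. The groups overlapped for both genes. DNAJA3, the mitochondrial DNAJA protein, differed by -0.011. DNAJB12, a membrane protein of the endoplasmic reticulum, had all 5 treated values above the vehicle range but differed by only 0.10 (adjusted p = 0.164). DNAJB6 (difference 0.14) was the member of its class with an unadjusted p under 0.05, and its 2 features gave 0.077 and 0.21. DNAJB2, DNAJB4, DNAJB7, DNAJB8, DNAJB13 and DNAJB14 differed by -0.050 to 0.30, none past the threshold, and DNAJB1, DNAJB9 and DNAJB11 are described with the spread between animals.

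Of the 9 DNAJ genes called, 8 belonged to the DNAJC class, which holds 28 of the 44 DNAJ genes (28.6% called, against 20.5% of all genes). DNAJC proteins share little beyond the J domain and bring HSP70 to particular sites. DNAJC7, which binds both HSP70 and HSP90, had -0.28, -0.19, -0.23, -0.12 and -0.24 in vehicle animals and 0.0071, 0.11, 0.13, -0.0099 and 0.10 in treated animals. The groups were separated by a gap wider than the SD of either group, with a difference of 0.28 (SE 0.056, 95% confidence interval 0.16 to 0.40, limma adjusted p = 0.0063). DNAJC10, a disulfide reductase of the endoplasmic reticulum that helps remove misfolded proteins, had -0.34, -0.46, -0.33, -0.12 and -0.32 in the vehicle group against 0.32, -0.056, 0.38, 0.18 and -0.097 in the treated group. Treated animals 2 and 5 were close to vehicle animal 4 and yet above it, with a difference of 0.46 (SE 0.098, 95% confidence interval 0.25 to 0.67, limma adjusted p = 0.00809). DNAJC25 had vehicle values of -0.47, -0.45, -0.27, -0.18 and -0.090 and treated values of 0.35, 0.0047, 0.11, 0.22 and -0.079, again without overlap but with treated animal 5 next to vehicle animal 5. Its difference was 0.41 (SE 0.095, adjusted p = 0.0114). A separate feature that the annotation gives to the DNAJC25-GNG10 read-through transcript had -0.42, -0.27, -0.19, -0.079 and -0.074 in vehicle and 0.088, 0.12, -0.012, 0.13 and 0.012 in treated animals, without overlap, and differed by 0.27 (adjusted p = 0.0205); such a transcript shares sequence with DNAJC25 and with GNG10, and the feature cannot be assigned to 1 of them.

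DNAJC19 and DNAJC30, J proteins of the mitochondrial inner membrane, both rose. DNAJC19 had -0.37, -0.24, -0.14, -0.095 and -0.044 without and 0.13, 0.15, 0.0095, 0.23 and 0.040 with treatment. All treated animals were above all vehicle animals, the nearest values being those of vehicle animal 5 and treated animal 3, with a difference of 0.29 (SE 0.071, 95% confidence interval 0.13 to 0.44, limma adjusted p = 0.0154). DNAJC30 was measured at -0.019, -0.033, -0.17, -0.036 and -0.035 in vehicle and 0.12, 0.40, -0.00092, 0.31 and 0.10 in treated animals. The vehicle values were close together save for vehicle animal 3, treated animals 2 and 4 were high and treated animal 3 was just above the vehicle range. The difference was 0.25 (SE 0.077, limma adjusted p = 0.0398). DNAJC11, which is found with the machinery that shapes the inner membrane, went the other way, from 0.16, 0.12, 0.12, 0.16 and 0.14 to -0.15, -0.14, -0.16, 0.10 and -0.063. The vehicle values lay close together (SD 0.018), and treated animal 4 was the 1 treated animal close to them, with a difference of -0.22 (SE 0.061, 95% confidence interval -0.35 to -0.090, limma adjusted p = 0.0233).

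DNAJC6, the clathrin-uncoating auxilin known mainly from neurons, had -0.28, -0.34, -0.29, -0.39 and 0.10 under vehicle and -0.028, 0.041, 0.14, 0.18 and 0.040 under treatment. Vehicle animal 5 was above 4 of the vehicle animals by a wide gap and above 3 of the treated animals, and the difference was 0.31 (SE 0.088, limma adjusted p = 0.0254). DNAJC1, a membrane J protein of the endoplasmic reticulum, had the most positive difference of the class, 0.53, with vehicle values of -0.31, -1.20, -0.0094, -0.027 and -0.30 and treated values of 0.18, 0.12, 0.42, 0.21 and -0.12. It did not pass (SE 0.19, adjusted p = 0.06). Without vehicle animal 2, the lowest, it was 0.32 (adjusted p = 0.0632); without vehicle animal 3 or vehicle animal 4 it passed (adjusted p = 0.0471 and 0.0355). Some other DNAJC genes had an unadjusted p under 0.05 and did not pass. DNAJC24, which acts in diphthamide synthesis, differed by 0.19 (adjusted p = 0.079), DNAJC8, a protein of the spliceosome, by 0.15 (adjusted p = 0.0987) and DNAJC17, also linked to splicing, by 0.14 (adjusted p = 0.0987). DNAJC27 differed by 0.20 and DNAJC14 by -0.21 (adjusted p = 0.0914 and 0.121). DNAJC12, a cochaperone of the aromatic amino acid hydroxylases that liver expresses, differed by 0.16 (adjusted p = 0.197), its 2 features by 0.17 and 0.15, and DNAJC3, an inhibitor of the kinase PERK, by 0.13 (adjusted p = 0.479). The DNAJC genes not named so far (DNAJC4, DNAJC5, DNAJC5B, DNAJC5G, DNAJC9, DNAJC13, DNAJC15, DNAJC16, DNAJC18, DNAJC21, DNAJC22 and DNAJC28) differed by -0.16 to 0.20, and none passed; DNAJC5 is the synaptic vesicle protein CSP and DNAJC13 acts on endosomes.

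**Figure D2:**
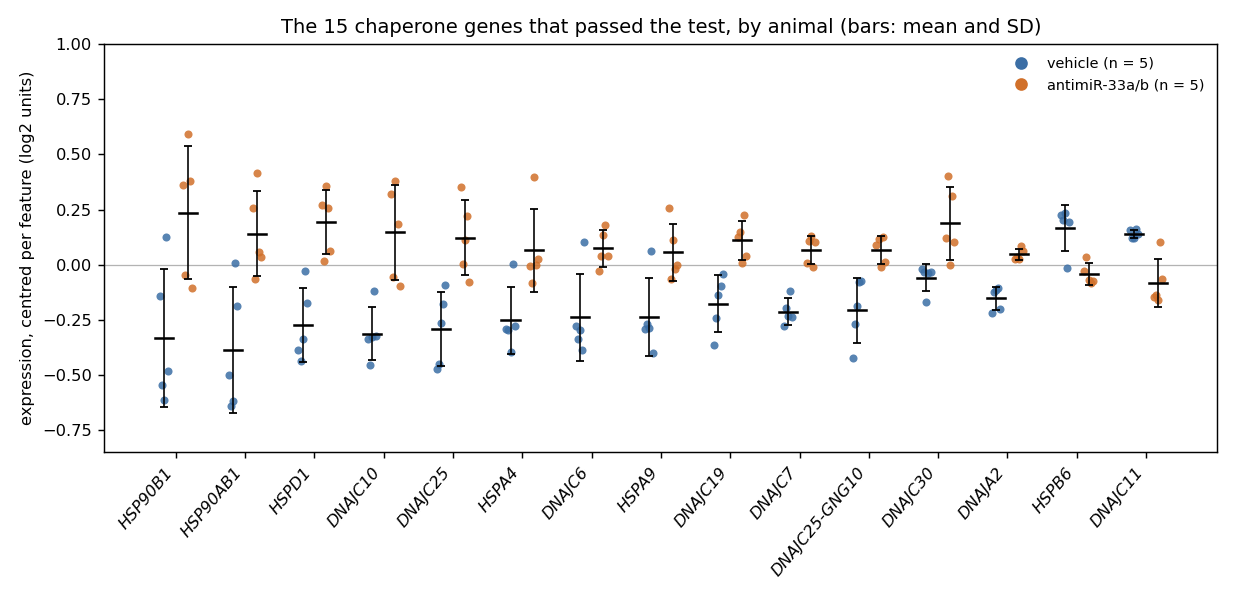
Centred expression (vertical axis, log2 units) of the 15 chaperone genes past the threshold, ordered from the most positive to the most negative difference. Each point is 1 animal (5 vehicle, 5 antimiR-33a/b), long bars are group means and error bars the SD. The groups do not overlap for 9 of the 15 genes, which were picked by limma on these same values. Over all genes, all treated values lay above all vehicle values in 8.79% and below them in 4.52%.

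Among the small heat shock proteins HSPB6 fell. It had 0.22, 0.20, 0.24, -0.017 and 0.19 in vehicle livers and -0.030, 0.036, -0.069, -0.083 and -0.076 in treated livers. Vehicle animal 4 was the 1 vehicle animal within the treated range, and the difference was -0.21 (SE 0.062, limma adjusted p = 0.0302). HSPB8, which works with BAG3 in selective autophagy, had the most positive difference of the class, 0.20 (adjusted p = 0.0995), with -0.26, -0.11, -0.019, -0.10 and 0.099 in vehicle and -0.073, 0.029, 0.14, 0.25 and 0.26 in treated animals, which overlapped. HSPB1, the abundant heat-inducible member, had -0.28, -0.024, -0.28, 0.38 and 0.41 under vehicle and 0.36, -0.0064, 0.0064, 0.055 and 0.017 under treatment. The vehicle animals covered a wider range than the treated animals and enclosed all of them, and the difference of 0.046 did not pass (95% confidence interval -0.25 to 0.34, adjusted p = 0.842). The other HSPB genes (HSPB2, HSPB3, HSPB7 and HSPB9), expressed mainly in muscle or testis, differed by -0.19 to 0.12, none past the threshold. Of 9 skeletal and smooth muscle markers 1 fell, CKM by 0.31, and 8 did not pass, with a summed level of the list between -1.39 and 1.41 in vehicle animals and between -0.76 and 0.11 in treated animals. The part of muscle RNA in the HSPB6 difference was not tested.

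The counts by compartment, over lists of 5 to 12 genes, stand beside 20.5% called over all genes, 13.7% higher and 6.8% lower. Of the 8 mitochondrial members 5 were called, 4 higher (HSPD1, HSPA9, DNAJC19 and DNAJC30) and 1 lower (DNAJC11). HSPE1, DNAJC15 (-0.021) and DNAJA3 did not pass, and the median difference was 0.24. Of 12 members of the endoplasmic reticulum 3 rose (HSP90B1, DNAJC10 and DNAJC25) and 9 did not pass, with a median of 0.17. Of 12 measured heat-inducible targets of HSF1, a list that also holds the constitutive HSPA8, 1 rose, HSPD1, and 11 did not pass, with a median of 0.21. None of the 6 members linked to the nucleus, ribosome or RNA passed in limma, 4 of them with an unadjusted p under 0.05 (35.6% over all genes). Of 5 J proteins of clathrin and synaptic vesicles DNAJC6 rose and 4 did not pass. Among 12 members known mainly from testis, brain or muscle DNAJC6 rose, HSPB6 fell and 10 did not pass, with a median of 0.067. These lists share genes (HSPD1 stands in 2 of them), were written with earlier results of these data known, and were not tested against each other.

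Several chaperones differed more between animals of the same group than most genes did. The SD within groups was above the 90th percentile of all genes for 15 of the 69 members (21.7%). The widest were DNAJB9, a J protein of the endoplasmic reticulum induced by the unfolded protein response (SD 0.55), HSPA1A (0.52), DNAJB11, the soluble partner of HSPA5 (0.42), DNAJC1 (0.37) and HSP90B1 (0.31). The median was 0.14 over members and 0.12 over all genes.

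DNAJB9 had 0.25, -1.15, -0.88, 0.41 and -0.41 in vehicle animals and 0.17, 0.069, 0.26, -0.64 and -0.14 in treated animals. Vehicle animals 2 and 3 were low and vehicle animals 1 and 4 high, so that the treated animals all fell inside the vehicle range (difference 0.30, 95% confidence interval -0.28 to 0.89, limma adjusted p = 0.448). DNAJB11 had 0.44, -0.23, -0.51, 0.51 and -0.38 without and 0.27, -0.29, 0.15, 0.38 and -0.41 with treatment, with vehicle animals 1 and 4 and treated animals 1 and 4 highest (difference 0.052, 95% confidence interval -0.40 to 0.50, adjusted p = 0.884). DNAJC3 had the same 4 animals highest, with 0.24, -0.21, -0.25, 0.37 and -0.18 and 0.31, -0.063, 0.11, 0.34 and -0.050 in the respective groups. HSPA5, often induced together with these genes, did not vary as widely: its 10 values spanned 0.29, against 1.02 for DNAJB11 and 1.20 for HSP90B1. HSPA5 was read from 1 feature and was highest in vehicle animal 5 and treated animal 2. Those animals also had the highest median of the 513 genes of families seldom transcribed in liver in their groups (0.15 and 0.093). Whether the feature reports HSPA5 was not tested. The 4 animals highest for DNAJC3 were also highest for HYOU1, outside the symbol rule (vehicle 0.42 and 0.89, treated 0.27 and 0.76).

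HSPA1A had values of 0.33, -0.33, -0.43, 1.18 and 0.41 in the vehicle group and of -0.033, -0.54, 0.35, -0.30 and 0.033 in the treated group. Vehicle animal 4 was the highest of the 10 and treated animal 2 the lowest. HSPH1, a heat-inducible HSP110 protein, had -0.16, -0.35, -0.33, 0.44 and 0.16 and 0.041, -0.063, 0.58, 0.14 and -0.041, with vehicle animal 4 and treated animal 3 highest in their groups (difference 0.18, 95% confidence interval -0.16 to 0.52, limma adjusted p = 0.43). DNAJB1, the main heat-inducible J protein, had -0.24, -0.27, -0.45, 0.049 and -0.0069 under vehicle and 0.19, -0.094, 0.68, -0.047 and -0.13 under treatment, with the same animals highest (difference 0.30, 95% confidence interval -0.0090 to 0.61, adjusted p = 0.151). Among the 12 members of the heat-inducible list, HSPA8 included, vehicle animal 4 was the highest of its group for 7 (58.3%, against 21.3% of all genes). Treated animal 3 was the highest of its group for 8 (66.7%, against 17.0% of all genes). Vehicle animal 4 also had the highest family contrast of its group, -0.026, and treated animal 3 the second highest of its group, 0.19.

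**Figure D3:**
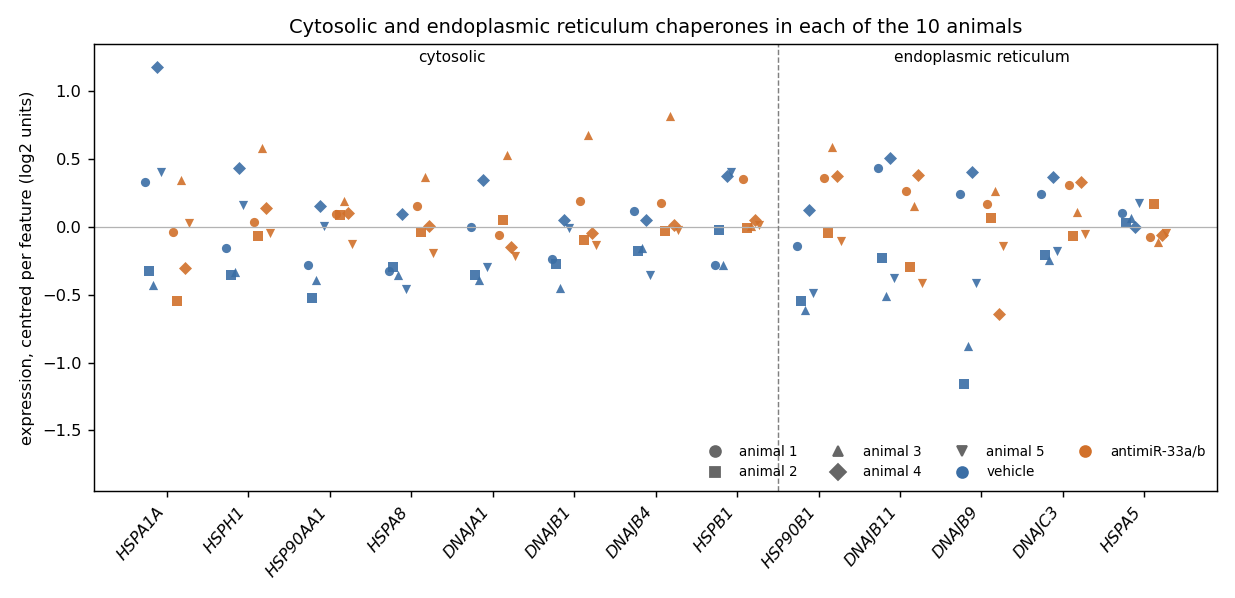
Centred expression (vertical axis, log2 units) of 8 cytosolic chaperones, most of them heat-inducible, and 5 chaperones of the endoplasmic reticulum in each animal; colour gives the group and the symbol the animal number within it. Vehicle animal 4 and treated animal 3 are high for HSPH1, DNAJA1, DNAJB1 and HSPA8, while the values of HSPA5 lie close together.

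After adjustment for the family contrast none of the 69 members passed in limma, against 2.51% of all genes (1.95% higher and 0.561% lower), and 20 had an unadjusted p under 0.05 (29%, against 27.7% of all genes). Of the 15 genes called without it, 14 kept the sign of their difference, 11 of these with a smaller difference. HSPD1 then differed by 0.24 (adjusted p = 0.199), HSP90AB1 by 0.19 (0.474), HSP90B1 by 0.11 (0.732), DNAJC10 by 0.17 (0.334) and DNAJC25 by 0.26 (0.25). HSPA4 differed by 0.069 (0.739), HSPA9 by -0.0041 (0.98) and HSPB6 by -0.10 (0.428). Other genes held most of their difference: DNAJC7 was at 0.24 (0.0884), DNAJA2 at 0.18 (0.136), DNAJC11 at -0.18 (0.203) and the read-through feature at 0.25 (0.172). DNAJC19, DNAJC30 and DNAJC6 were at 0.29, 0.38 and 0.45 (adjusted p = 0.117, 0.0689 and 0.0691), no smaller than before. The median over all members changed from 0.14 to 0.13, and that over all genes from 0.039 to 0.088. The contrast moves with the groups, and 10 animals do not tell the share of each apart.

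**Figure D4:**
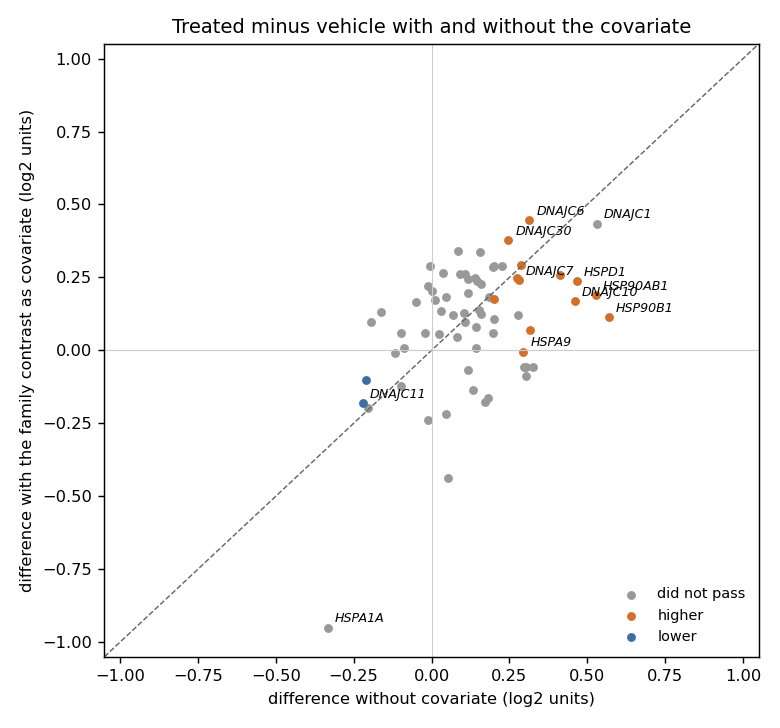
Treated minus vehicle difference of the 69 chaperone genes without a covariate (horizontal axis) and after adjustment for the family contrast (vertical axis), both in log2 units; the dashed line marks equal values. HSP90B1, HSP90AB1 and HSPA9 lie well under the line, and DNAJC6 and DNAJC30 above it.

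When each animal was left out in turn, HSPD1, DNAJC7, DNAJC10, DNAJC25, HSP90AB1 and DNAJC19 passed in all 10 fits (limma adjusted p up to 0.0419). The other 9 of the 15 missed the threshold in at least 1 fit: DNAJA2 in 1, the read-through feature in 2, DNAJC11 in 3, HSP90B1 and DNAJC6 in 5 each, HSPA9 and HSPA4 in 6 each, DNAJC30 in 7 and HSPB6 in 8, with adjusted p up to 0.0919. Without vehicle animal 1 the counts were 7 higher and 0 lower (10.1% of members called, against 11.6% of all genes). Without vehicle animal 2 they were 7 and 1 (11.6% of members, against 12.9% of all genes). Without treated animal 1 or 3 neither DNAJC11 nor HSPB6 passed, and HSPB6 alone of them missed without vehicle animal 2, 3 or 5 or treated animal 4 or 5.

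Outside the symbol rule, 54 of 58 listed genes that work with these chaperones were measured; 16 rose and 1 fell (31.5% called), with a median difference of 0.16. Over all genes 20.5% were called, 13.7% higher and 6.8% lower, and the median was 0.039. Of 14 genes of the cytosolic chaperonin TRiC and its partner prefoldin, which fold actin and tubulin, 8 rose. They were the TRiC subunits CCT4 (0.52), CCT2 (0.48), CCT8 (0.42), TCP1 (0.33), CCT3 (0.30) and CCT6A (0.26) and the prefoldin subunits PFDN5 (0.42) and VBP1 (0.28). CCT2 had -0.37, -0.31, -0.22, -0.12 and -0.32 in vehicle and 0.28, 0.20, 0.40, 0.23 and -0.075 in treated animals, without overlap (limma adjusted p = 0.0037). CCT6A missed the threshold in 6 of the 10 fits that left out an animal and CCT3 in 4, and CCT3 also after quantile normalization (adjusted p = 0.0792). After adjustment for the family contrast CCT4 differed by 0.097, CCT3 by 0.020 and CCT2 by 0.28 (adjusted p = 0.598, 0.884 and 0.128).

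Of 15 measured genes in a list of HSP90 cochaperones and mitochondrial TRAP1, 4 rose (26.7%, against 13.7% of all genes). They were SUGT1 (0.51), PTGES3 (0.40), the myosin-folding factor UNC45A (0.30) and the prolyl isomerase PPID (0.27). TRAP1 differed by 0.20 and did not pass (limma adjusted p = 0.105). SUGT1, a client adaptor of HSP90, had -0.55, -0.56, -0.38, -0.62 and -0.045 and 0.11, 0.16, 0.11, 0.0024 and 0.036 in the respective groups (limma adjusted p = 0.00458). Every treated animal was above every vehicle animal. It was the 1 gene of these 17 that still passed once the family contrast was in the fit (0.66, adjusted p = 0.044). Of 14 factors that bind HSP70 2 rose, ST13 (0.31) and the mitochondrial nucleotide exchange factor GRPEL2 (0.20). That share of 14.3% was near the 13.7% of all genes. Of 8 other chaperones CRYAB, a small heat shock protein (0.28), and SEC63, a J protein of the translocation channel (0.34), rose (25%). With 1 animal left out GRPEL2 missed the threshold in 8 of 10 fits, CRYAB in 7, PPID in 6 and ST13 in 5. After quantile normalization PPID, PTGES3 and SEC63 missed it (adjusted p = 0.0907, 0.0582 and 0.0533), PPID also when array medians were equalized.

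Of the listed heat shock factors, HSF1 and HSF4 were measured and HSF2 and HSF5 were not. HSF4 fell by 0.30 (limma adjusted p = 0.0132), with values of 0.29, 0.17, 0.13, 0.069 and 0.20 in vehicle and -0.13, 0.025, -0.13, -0.34 and -0.071 in treated animals that did not overlap. HSF1, the main regulator of the heat shock response, differed by -0.15 (adjusted p = 0.383), and HSBP1, which binds it, by 0.29 (adjusted p = 0.0507). Markers of the cells in the biopsy moved as well, beside 13.7% higher and 6.8% lower over all genes. Hepatocyte markers rose in 5 of 11 cases, stellate cell markers in 3 of 7 and endothelial markers in 2 of 7; of 7 T and NK cell markers 3 fell and 1 rose, and of 7 macrophage and neutrophil markers none passed in limma (2 with an unadjusted p under 0.05). The summed hepatocyte markers ran from -4.29 to -0.33 in vehicle animals and from -0.68 to 1.47 in treated animals, those of stellate cells from -1.72 to 0.16 and from -0.57 to 2.02, and those of endothelium from -2.84 to 0.11 and from -0.85 to 2.07. The sums of T and NK cell markers ran from -0.52 to 1.50 and from -0.66 to -0.016, and those of macrophage and neutrophil markers from -3.76 to 1.71 and from -0.81 to 1.00. Their part in the chaperone differences was not tested.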

How the data were processed

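Liver RNA (1 µg per animal) was converted to double-stranded cDNA and hybridised with 1 dye, Cy3, on 1 array per animal, per the labels' protocols. The deposited values are the authors' processed values on a log scale, taken here as log2 and as centred per feature; the log base, centring, scanner, normalization and probe summary are none of them given in the sources used here. Under a natural log every fold would lie further from 1. Depth does not apply to arrays; their number limits the precision.

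Of 45033 features 18188 carried 1 gene symbol, 0 several and 26845 none. Features of a gene were averaged, which gave 16583 genes. Probe sequences were not used, so mismatches of human-named features to monkey transcripts were not examined. Group differences came from limma (version 3.58.1, R 4.3.3; lmFit, then eBayes, no covariate) over all genes with Benjamini-Hochberg adjustment and a threshold of 0.05, after a test on simulated data; single genes were also put to an exact two-sided permutation test over 252 assignments. The members, the gene lists and the family contrast were chosen with earlier results of these data known. Values were given for called members (up to 12 in each direction in order of p), for a fixed set of core chaperones and for the most positive and most negative gene of each class of 4 or more; DNAJC30, the last of the 13 called higher, and DNAJB12, DNAJB6, HSPA14 and other genes outside this rule were named after their values were seen. The alternatives were quantile normalization, a shift to equal medians, the most variable feature per gene, every feature on its own, trend and robust settings, array weights, the family contrast and each animal left out. The labels give no batch.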

Additional observations from a re-analysis of the deposited data

Results flagged for a closer look

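In some groups 1 animal stood apart: its gap to the nearest other animal, divided by the range of the 5 animals, was above Dixon's critical value of 0.71. This was so in 16 of 138 groups (69 genes in 2 groups each). The critical value is set to flag about 1 in 20 groups of independent, normally distributed values. The genes share the same animals, so the 138 groups are not independent. The rate over all genes is not given here, so whether chaperone genes were flagged more often than other genes was not tested. The animals most often apart were vehicle animal 4, in 4 groups, and treated animal 3, in 3.

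Treated animal 1 stood apart for DNAJC16 at -0.18, with the other 4 between 0.075 and 0.15 (ratio 0.778) and HSPB1 at 0.36, with the other 4 between -0.0064 and 0.055 (ratio 0.83). Treated animal 2 stood apart for HSPA5 at 0.17, with the other 4 between -0.11 and -0.040 (ratio 0.756). Treated animal 3 stood apart for DNAJB4 at 0.82, with the other 4 between -0.029 and 0.18 (ratio 0.755), HSPA14 at 0.22, with the other 4 between -0.015 and 0.052 (ratio 0.712) and HSPA4 at 0.40, with the other 4 between -0.083 and 0.026 (ratio 0.772). Treated animal 4 stood apart for HSPE1 at 0.35, with the other 4 between -0.00073 and 0.083 (ratio 0.762). Vehicle animal 2 stood apart for DNAJA4 at 0.20, with the other 4 between -0.035 and 0.032 (ratio 0.716) and DNAJC1 at -1.20, with the other 4 between -0.31 and -0.0094 (ratio 0.742). Vehicle animal 3 stood apart for DNAJC30 at -0.17, with the other 4 between -0.036 and -0.019 (ratio 0.887). Vehicle animal 4 stood apart for DNAJB13 at -0.093, with the other 4 between 0.021 and 0.064 (ratio 0.728), DNAJB8 at -0.28, with the other 4 between -0.024 and 0.064 (ratio 0.747), HSPA9 at 0.061, with the other 4 between -0.40 and -0.27 (ratio 0.716) and HSPB6 at -0.017, with the other 4 between 0.19 and 0.24 (ratio 0.83). Vehicle animal 5 stood apart for DNAJB14 at 0.21, with the other 4 between -0.19 and -0.087 (ratio 0.732) and DNAJC6 at 0.10, with the other 4 between -0.39 and -0.28 (ratio 0.778).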

How the results depend on the processing

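With the family contrast as a covariate 0 members were called higher and 0 lower. HSPA9 went to -0.0041, a difference smaller than its SE of 0.083 (limma adjusted p = 0.98). The cause was not tested. Leaving out 1 animal gave 7 to 16 members called higher and 0 to 2 called lower, with medians of 0.12 to 0.15. In these fits the share called ran from 10.1% to 26.1% of members and from 11.6% to 24.8% of all genes. Without vehicle animal 1, 8 of the 15 calls were lost, and 10.1% of members and 11.6% of all genes were called. Without vehicle animal 4 all 15 were kept and DNAJC1, HSP90AA1 and HSPA8 were added, with 26.1% of members and 24.8% of all genes called. Quantile normalization gave 10 higher and 2 lower, the shift to equal medians 12 and 2, the most variable feature 13 and 2, trend and robust settings 14 and 2, and array weights 19 and 2. The share called among members and among all genes was 17.4% and 19.8%, 20.3% and 23.4%, 21.7% and 21.6%, 23.2% and 20.2%, and 30.4% and 26.3%, in that order. All 15 called members had an exact permutation p of at most 0.0317, 9 of them the smallest possible. These genes were picked by limma on the same values, so their small exact p adds no separate support. Over all genes, all treated values lay above all vehicle values in 8.79% and below them in 4.52%. No paired analysis was possible because no label ties a treated animal to a vehicle animal. Signal over background is unknown.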

Other observations

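Of the 12 measured chaperones that are known mainly from testis, brain or muscle, vehicle animal 4 was the lowest of its group for 9 (75.0%, against 41.4% of all genes) and treated animal 1 for 9 (75.0%, against 35.3%), while vehicle animal 5 was the highest for 8 (66.7%, against 43.0%). The same animals stood at the ends for the 513 genes of families seldom transcribed in liver, whose median was -0.047 in vehicle animal 4, 0.15 in vehicle animal 5 and -0.12 in treated animal 1. After adjustment for the family contrast the testis gene DNAJB8 went from 0.16 to 0.34 (limma adjusted p = 0.0643) and HSPA1L from 0.086 to 0.34 (adjusted p = 0.0706), both named after their values were seen.

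HSPA1A, DNAJB1, DNAJB11 and HSPA5 also differed in how the covariate moved them. A change of sign was not particular to them: of the 54 members not called, 18 changed sign with the covariate. HSPA1A went from -0.33 to -0.95 (adjusted p = 0.122), DNAJB1 from 0.30 to -0.089 (adjusted p = 0.784), DNAJB11 from 0.052 to -0.44 (adjusted p = 0.346) and HSPA5 from -0.099 to 0.059 (adjusted p = 0.642), none past the threshold.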
